A study of Drosophila melanogaster with 13 samples.

Results

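The peaks described here lie on 2LHet, XHet and YHet, the 3 small scaffolds of the Drosophila melanogaster assembly that hold heterochromatin placed on chromosome arm 2L, on the X and on the Y. Every peak of 9 deposited ChIP-seq peak lists with one of these scaffold names was taken, which gave 680 of 83082 peaks. Of these, 414 lay on 2LHet, 189 on XHet and 77 on YHet. Judged by the last peak end over the 9 lists, peaks reached to base 368831 of 2LHet, 203322 of XHet and 341224 of YHet, and these lengths served as the spans below. Coordinates are of dm3 (Release 5), counted from base 1.

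The study took 1 library per group from 2 tissues. Salivary glands, a polytene tissue, were dissected from wandering larvae of the last instar. The larvae were of the wild-type strain OrR or mutant for SuUR, and the labels used here state neither the allele nor the sex. Chromatin was precipitated with a Rockland antibody to gamma-H2Av in both strains and with Abcam rabbit IgG in OrR, so the OrR IgG list is the background for both. OrR egg chambers, 600 for each ChIP and fixed in 2% formaldehyde, came from females kept on wet yeast, at stage 10 or as a pool of stages 12-13, and were precipitated with antibodies to SUUR or Cdc45 made in-house or with guinea pig IgG. An egg chamber holds germ cells as well as follicle cells, so values are of the mixture. The headers of the 4 egg chamber ChIP lists name the other of these antibodies than the labels do, so the lists are called by their labels and no difference between them can be assigned to a protein.

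As background, the sequence around fly centromeres is mostly satellite DNA and transposon copies, packed as heterochromatin and replicated late. In polytene cells much of it is replicated less than the arms, and the chromatin protein SUUR is needed for this underreplication. Gamma-H2Av, phosphorylated H2Av, marks DNA breaks, and Cdc45 travels with the helicase of the replication fork. Females carry no Y chromosome, so egg chambers have no Y DNA of their own.

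Depth differed most among the egg chamber libraries, from 353742 tags after duplicate removal in the stage 10 library labelled SUUR to 8265341 in the one labelled Cdc45, with 2592149 to 6942374 in the other 4. The gland libraries held 15996251 to 19208769. In the stage 10 list labelled SUUR all 25 peaks on the 3 scaffolds had a summit pileup of 2 to 4 tags, and 19 of them were exactly as wide as the caller's fragment length of 49 bp. Over that whole list 90.4% of peaks had a pileup under 5 and 64.4% had this width, so both traits were of the list. In the other 5 egg chamber lists no peak had a pileup under 5. The gland and egg chamber lists came from different callers, so gland tag counts, which are totals over a peak, are not set beside egg chamber pileups, which are heights at the summit. OrR gamma-H2Av and OrR IgG were called against the same input, and so were the 3 lists of each egg chamber stage. With 1 library per group no difference between groups could be tested. Ranges in parentheses after a share are Wilson 95% intervals, which cover counting error over peaks and nothing else.

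The 3 scaffolds held at most 1.28% of any list. The share was 0.715% (0.519 to 0.984%) for OrR gamma-H2Av, 0.805% (0.617 to 1.048%) for SuUR gamma-H2Av and 0.704% (0.517 to 0.957%) for gland IgG, whose intervals overlap. At stage 10 it was 1.19% (1.06 to 1.33%) for the list labelled Cdc45, 0.486% (0.329 to 0.716%) for the one labelled SUUR and 0.126% (0.0611 to 0.260%) for IgG. At stages 12-13 the shares were 1.28% (1.11 to 1.49%), 0.365% (0.264 to 0.504%) and 0.245% (0.153 to 0.392%) in the same order. The interval of the list labelled Cdc45 lay above those of the other lists of its stage. With every egg chamber list cut to its best 5147 peaks by p, the stage 10 list labelled Cdc45 had 0.7577% (0.555 to 1.034%), which overlaps the interval of the list labelled SUUR, so that this separation was lost. It still lay above IgG, at 0.136% (0.0659 to 0.281%). With a p limit of 1e-05 the stage 10 list labelled SUUR had 0.1167%, which was 1 peak.

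In glands the 3 scaffolds differed in which list was densest. On 2LHet, IgG had the most peaks, 6.51 per 100 kb, against 5.42 for SuUR and 3.80 for OrR gamma-H2Av. On XHet the order was OrR gamma-H2Av with 4.43, SuUR with 3.94 and IgG with 2.95 peaks per 100 kb. On YHet SuUR had 7.62, OrR gamma-H2Av 4.10 and IgG 2.93. With a p limit of 1e-10, YHet kept 12 SuUR peaks and 4 each of OrR gamma-H2Av and IgG, so that the last 2 no longer differed in number. The larger Het scaffolds 2RHet, 3LHet and 3RHet together had 6.15, 6.34 and 6.17 peaks per 100 kb for OrR gamma-H2Av, SuUR and IgG, nearly the same in all 3.

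In egg chambers the list labelled Cdc45 was the densest at both stages on every scaffold. At stage 10 it held 54.0 peaks per 100 kb on 2LHet, 40.3 on XHet and 3.81 on YHet, and at stages 12-13 it held 30.6, 25.1 and 1.76. The lists labelled SUUR held 3.80, 4.92 and 0.293 at stage 10 and 4.61, 7.38 and 1.17 at stages 12-13. IgG peaks numbered 0, 2.95 and 0.293 per 100 kb on the same scaffolds at stage 10 and 3.52, 0.984 and 0.586 at stages 12-13. The 0 of 5551 stage 10 IgG peaks on 2LHet allow a share of up to 0.0540% of that list. YHet was the sparsest of the 3 scaffolds in the other 5 egg chamber lists, while in glands it was sparsest for IgG only. Being the densest was not particular to these scaffolds. Over whole lists, stage 10 had 14.7 peaks per 100 kb labelled Cdc45, 3.05 labelled SUUR and 3.29 of IgG. Stages 12-13 had 7.85, 5.85 and 4.11 in the same order. The larger Het scaffolds had 36.7 and 19.4 labelled Cdc45 at the earlier and later stage. The library labelled Cdc45 was also the deepest of each stage.

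**Figure D1:**
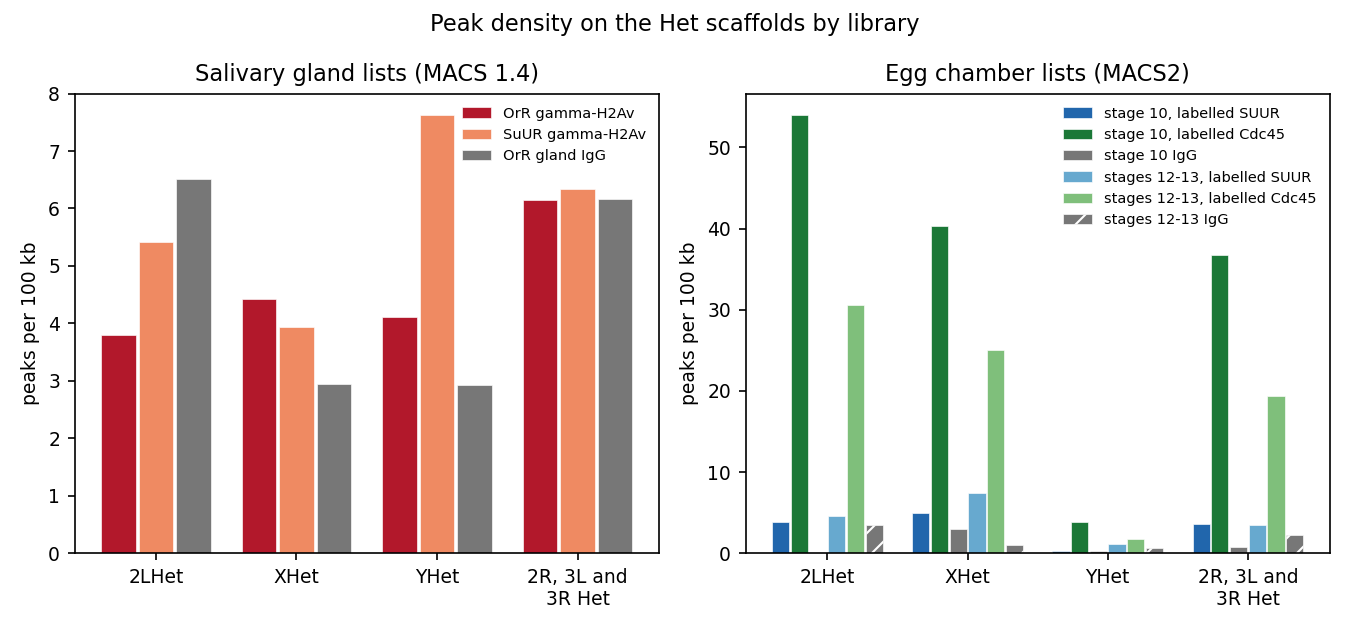
Peaks per 100 kb of span (y axis) on 2LHet, XHet, YHet and the 3 larger Het scaffolds together (x axis), 1 bar per library, with gland lists on the left and egg chamber lists on the right at another scale. SuUR gamma-H2Av stands at 7.62 on YHet against 2.93 for gland IgG, and the egg chamber bars labelled Cdc45 fall from 54.0 and 30.6 on 2LHet to 3.81 and 1.76 on YHet.

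Covered length gave the following picture in glands. On 2LHet gamma-H2Av peaks covered 62.0 kb in OrR (16.8% of the span) and 110.2 kb in SuUR (29.9%), with 77.3 kb (21.0%) for IgG, so OrR lay below its background and SuUR above it. On XHet they covered 43.3 kb (21.3%) in OrR, 35.4 kb (17.4%) in SuUR and 14.5 kb (7.13%) in IgG. On YHet they covered 13.0 kb (3.80%), 27.7 kb (8.12%) and 7.32 kb (2.14%). The SuUR list thus covered 1.78 times as much as OrR on 2LHet, 0.816 times on XHet and 2.14 times on YHet. Over the 3 scaffolds together the ratio was 1.47, close to the 1.44 of the larger Het scaffolds and above the 0.413 of the major arms. Strain and library cannot be told apart, and each strain had its own input. Covered length was not recomputed with the stricter p limit of 1e-10.

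By their medians, gland peaks were wider on 2LHet and XHet than on YHet. For comparison, the whole lists had median widths of 1042, 854 and 753 bp for OrR gamma-H2Av, SuUR and IgG. On the major arms the medians were 2691, 4352 and 2795 bp. The median width on 2LHet was 2574 bp in OrR gamma-H2Av, 3900 bp in SuUR and 2482 bp in IgG, with medians of 180, 311 and 140 tags. On XHet it was 5335, 5322 and 2804 bp, with medians of 607, 560.5 and 157 tags. On YHet it was 939.5, 749.5 and 553.5 bp, with medians of 40, 45.5 and 33 tags. The highest count on YHet was 76 tags in OrR gamma-H2Av, 184 in SuUR and 216 in IgG, and the last lies above the IgG medians of the other two scaffolds. Fold enrichment over the input is the authors' value and serves only to rank peaks within a list. Its median on 2LHet, XHet and YHet was 5.57, 4.34 and 6.33 in OrR gamma-H2Av, 4.57, 6.55 and 7.42 in SuUR, and 5.28, 4.08 and 8.28 in IgG.

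**Figure D2:**
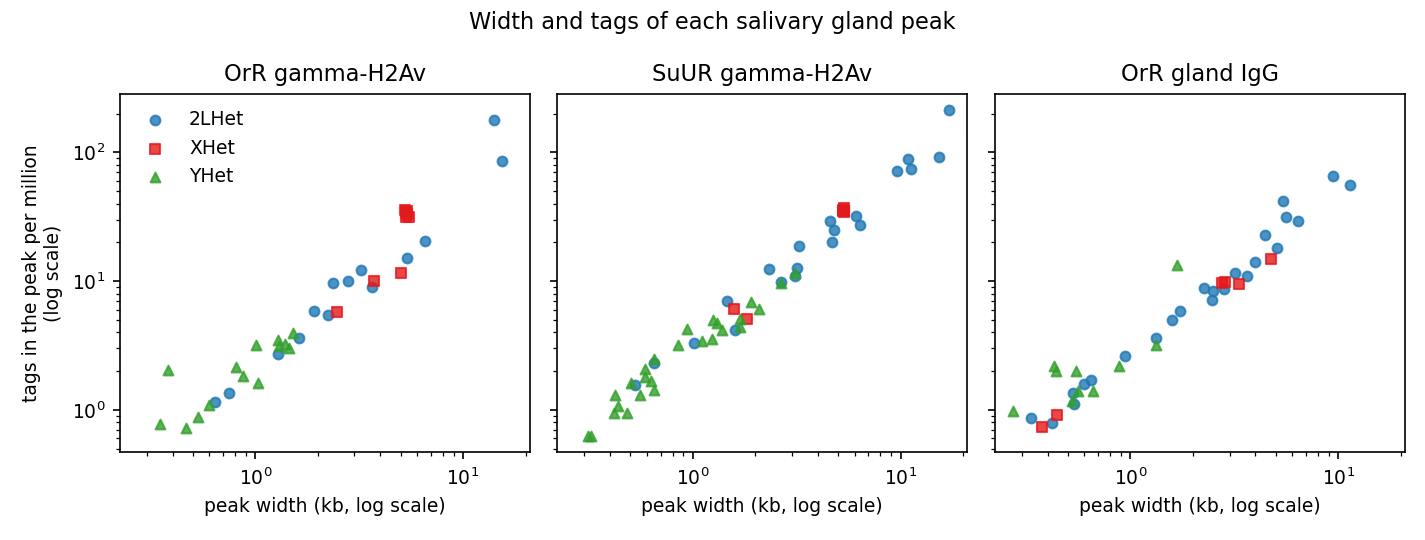
Width of each gland peak in kb (x axis, log scale) and its tags on a per-million scale of the library (y axis, log scale), 1 point per peak, in 3 panels for OrR gamma-H2Av, SuUR gamma-H2Av and OrR IgG, with the scaffold given by colour and shape. The XHet squares of both gamma-H2Av panels pile up at 31.2 to 37.1 on the per-million scale and a width just above 5 kb, where the IgG panel has no such cluster, and most YHet triangles lie at the low end of all 3 panels, with exceptions at 184 tags in SuUR and 216 tags in IgG.

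Egg chamber peaks were far narrower, as they were over the whole lists. There the medians were 49 to 102 bp in egg chambers and 753 to 1042 bp in glands. Tissue and caller cannot be told apart in this difference. The median width of the peaks labelled Cdc45 was 69 bp on 2LHet, 74 bp on XHet and 68 bp on YHet at stage 10, with median pileups of 12, 13 and 14 tags. At stages 12-13 it was 103, 86 and 97 bp, with pileups of 14, 13 and 14.5. The peaks labelled SUUR at stages 12-13 had median widths of 67, 84 and 144.5 bp and pileups of 10, 10 and 12.5. Those of IgG at stages 12-13 had 67, 68 and 204.5 bp and pileups of 6, 7 and 14.5. On YHet, then, the median IgG pileup reached that of the list labelled Cdc45, although the IgG library was the shallower by tags. This median rests on only 2 IgG peaks, with pileups of 11 and 18, and that of the list labelled Cdc45 on 6 peaks. Covered length on 2LHet was 19.2 kb labelled Cdc45 and 0.915 kb labelled SUUR at stage 10, and 15.01, 1.24 and 0.925 kb labelled Cdc45, labelled SUUR and IgG at stages 12-13. On XHet it was 8.74, 0.490 and 0.926 kb labelled Cdc45, labelled SUUR and IgG at stage 10, and 6.005, 1.27 and 0.136 kb at stages 12-13. On YHet the 6 lists covered between 0.049 and 1.28 kb.

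On XHet, 6 gamma-H2Av peaks of nearly equal width followed each other at nearly equal spacing, and the same 6 were present in both strains. They were singled out after their values were seen. In OrR they ran from 92833 to 98187, 98792 to 104056, 104631 to 109965, 110470 to 115842, 116390 to 121855 and 122288 to 127624. Their widths were 5265 to 5466 bp and the gaps between them 432 to 604 bp, so that starts followed each other after 5959, 5839, 5839, 5920 and 5898 bp.

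In SuUR the 6 peaks ran from 92877 to 98224, 98787 to 104126, 104631 to 109970, 110563 to 115868, 116429 to 121738 and 122309 to 127641. Their widths were 5306 to 5348 bp, the gaps 504 to 592 bp and the distances between starts 5844 to 5932 bp. The third peak began at the same base in both strains.

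The 6 peaks were also alike in height. In OrR they held 640, 682, 600, 669, 607 and 658 tags, and in SuUR 561, 593, 563, 560, 571 and 555. Scaled to the library, this was 31.2 to 35.5 per-million tags in OrR and 34.7 to 37.1 in SuUR, ranges that overlap. Summed over the 6 peaks it was 200.7 in OrR and 212.7 in SuUR on the same scale. Folds over the input were 3.71 to 6.23 in OrR and 5.53 to 8.73 in SuUR, each against its own input.

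Gland IgG had peaks over 2 of the 6 units only. They lay at 112957 to 115722 with 158 tags and at 118905 to 121747 with 162 tags, and so began 2487 and 2515 bp after the start of the fourth and the fifth OrR peak. Over the 34.8 kb from the first start to the last end, 17.1% of the span of XHet, OrR gamma-H2Av covered 92.3%, SuUR 91.9% and IgG 16.1%. In the rest of XHet they covered 6.65, 2.02 and 5.27%. The stretch held 88.1% of the OrR tags in XHet peaks, 95% of the SuUR tags and 43.0% of the IgG tags.

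**Figure D3:**
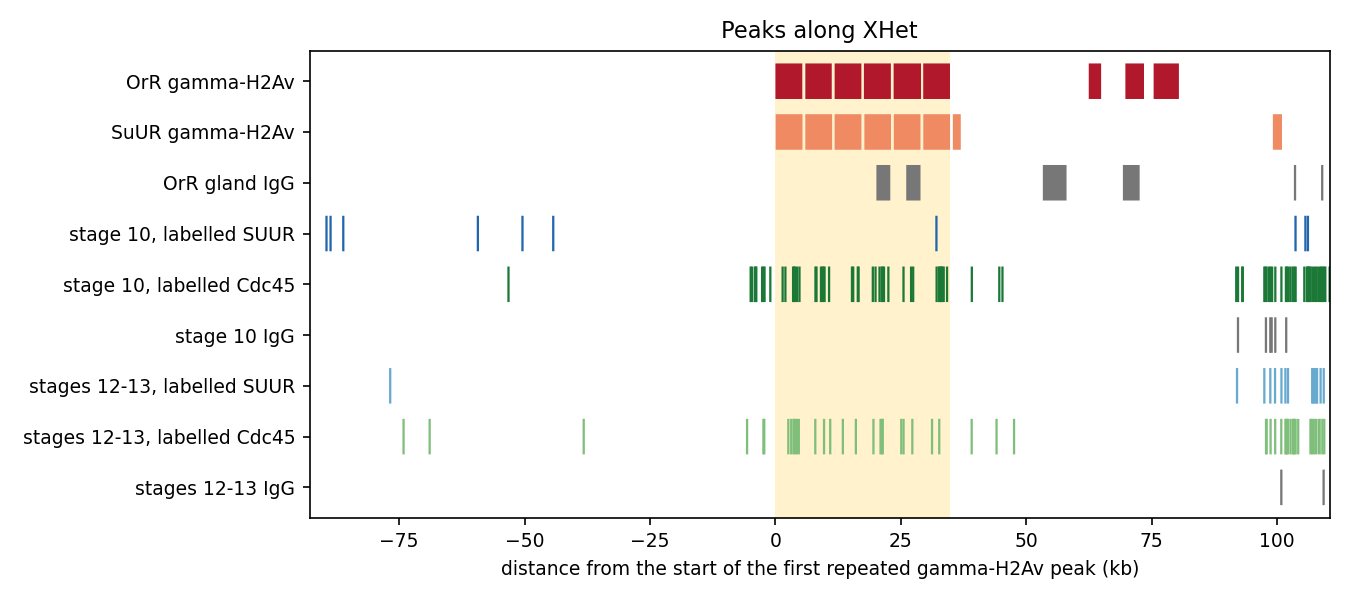
Peaks along XHet in the 9 lists, 1 line per library, against the distance in kb from the start of the first repeated gamma-H2Av peak; peaks too narrow to see are drawn at a fixed least width. The shaded 34.8 kb holds the 6 OrR and 6 SuUR gamma-H2Av peaks side by side, 2 gland IgG peaks and the 36 and 20 narrow peaks labelled Cdc45. The last of 4 equal parts of the span, from base 152492, holds 14 of the 15 peaks labelled SUUR of stages 12-13.

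Such equal extents were rarer on 2LHet, YHet, the larger Het scaffolds and the major arms. With a reciprocal overlap of at least 90%, 6 of 9 OrR peaks and 6 of 8 SuUR peaks on XHet had a partner in the other strain, where the background over all peaks was 7.42% of the OrR list and 5.72% of the SuUR list. The 6 units were themselves defined by this overlap and are neighbours, so these XHet shares only describe the run. By this overlap a partner was found for 0 of 14 OrR peaks on 2LHet, which allows a share of up to 21.4%, and for 1 of 14 on YHet. It was found for 9 of 513 on the larger Het scaffolds and for 2 of 677 on the major arms. The whole OrR list had 384 such peaks, so most of them lay outside all of these places. A search of each whole list for runs of at least 6 neighbouring peaks of at least 1 kb, with each start-to-start distance within 5% of the run's median, found this run alone in OrR gamma-H2Av among 2749 such wide peaks. In SuUR it found the XHet run, with 7 peaks at a median distance of 5883 bp, and a run of 6 peaks at 3347 bp in the unplaced sequence Uextra. It found none among the 1525 wide peaks of gland IgG. The least number of 6 peaks equals the length of the OrR run already seen, so the search had to find that run. It is therefore no separate support for the run. The seventh SuUR peak of the XHet run, 128195 to 129773, was narrower and held 98 tags. Whether the sequence below the 6 peaks repeats was not tested, since no genome of this build was used.

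The units also held egg chamber peaks. Of the 82 stage 10 peaks labelled Cdc45 on XHet, 36 lay in the 6 units, 3 to 8 in each, and 20 of the 51 peaks of stages 12-13 did, 2 to 6 in each. Measured from the start of the OrR peak, their centres lay at 1434 to 4874 bp at stage 10 and at 1521 to 4958 bp at stages 12-13, so that none fell in the first 1 kb of a unit. At stage 10 each of the 6 units had a centre within the same 98 bp, at 3518, 3438, 3455, 3536, 3483 and 3519 bp from its start, while the narrowest such window at stages 12-13 was 925 bp wide. This measure was chosen after the positions were seen. Coverage in the array was 7.59% at stage 10 and 4.94% at stages 12-13, against 3.62 and 2.54% in the rest of XHet. The list labelled SUUR had 1 peak in the units at stage 10 and 0 of its 15 XHet peaks at stages 12-13, and both egg chamber IgG lists had none.

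The end of XHet, from 198221 to 203322, was the widest cluster of stage 10 peaks labelled Cdc45 on the scaffold. There 14 peaks covered 3.02 of 5.10 kb, among them the peak of highest fold on XHet in that list, 199633 to 200577, with a pileup of 28 tags and a fold of 6.53. At stages 12-13 the list labelled Cdc45 covered 2.07 kb with 7 peaks, and its peak of highest fold on XHet, 200266 to 200879, lay there too, with a pileup of 20 and a fold of 4.26. The list labelled SUUR covered 0.657 kb with 7 peaks at stages 12-13 and 0.098 kb with 2 peaks at stage 10. IgG covered 0.056 kb at stages 12-13, had no peak there at stage 10 and covered 0.374 kb in glands. No gamma-H2Av peak of either strain lay in these 5.10 kb, nor in the opposite end of XHet, from base 1 to 50830, which had no gland IgG peak either. That opposite end held 6 of the 10 stage 10 peaks labelled SUUR on XHet, each of 2 or 3 tags.

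Outside the array and this end, OrR gamma-H2Av had 3 XHet peaks, at 155286 to 157753, 162586 to 166296 and 168217 to 173253, with 110, 191 and 221 tags. The second of them overlapped gland IgG and none overlapped a SuUR peak. The remaining SuUR peak, 191985 to 193798 with 81 tags, overlapped no OrR peak. The IgG peak of highest fold on XHet was 196179 to 196621 in glands, with 15 tags and a fold of 13.05, and 190438 to 190771 at stage 10, with a pileup of 14 and a fold of 5.90. The peak labelled SUUR of highest fold without IgG at stages 12-13, 191433 to 191516, had a pileup of 13 and a fold of 4.88, and lay within the stage 10 IgG peak 191389 to 191558. The bin of 10 kb that holds these places, 190001 to 200000, was covered by 27.2% at stage 10 and by 18.0% at stages 12-13 in the lists labelled Cdc45, with 8.79 and 0.8% for IgG. The SuUR stretch from 193651 to 193708 was also covered by both ChIP lists and IgG of stages 12-13 and by the stage 10 list labelled Cdc45.

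On 2LHet the largest gamma-H2Av peaks of the 3 scaffolds lay close to the first base. In OrR a pair of peaks, 14478 to 29962 with 1634 tags and 29967 to 44062 with 3441 tags, covered nearly all of 29.6 kb. By tags the latter was the peak of rank 4 among all 5175 in the OrR list. In SuUR the peaks 17388 to 23504 with 517 tags and 23534 to 40563 with 3423 tags covered 23.1 kb of the same block, and the latter was of rank 7 among 6712 and had the highest fold, 9.02, of the SuUR peaks on 2LHet that overlapped no IgG. On the per-million scale the highest peak reached 179.1 in OrR and 214 in SuUR. Gland IgG covered 1.62 kb, at the left edge of the block. From 20001 to 40000 gamma-H2Av covered at least 99.7% of each 10 kb in both strains and IgG none. Egg chamber lists had at most 0.117 kb in the block.

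The far end of 2LHet differed between the gland lists. From 270180 to 310331, a block of 40.2 kb, SuUR peaks covered 40.0 kb with 4 peaks, the widest of them 295029 to 310331 with 1477 tags. OrR gamma-H2Av covered 13.2 kb there with 6 peaks of at most 234 tags, and IgG 9.90 kb with 7 peaks of at most 143 tags. In the last of 4 equal parts of the span, from 276624, coverage was 57.1% in SuUR, 26.3% in OrR and 23% in IgG. The OrR peak of highest fold on 2LHet without IgG lay here, 277541 to 278178, with 22 tags and a fold of 6.19. This difference between the strains rests on 1 library each. The widest SuUR peak of the block, 295029 to 310331, had a caller's −log10 p of 5.249, so it fails the stricter limit of 1e-10.

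Other stretches of 2LHet were covered by IgG but not by gamma-H2Av. The IgG peak 208048 to 219457, 11410 bp with 911 tags, overlapped no gamma-H2Av peak of either strain, and neither did the IgG peak 179247 to 185623 with 480 tags. The IgG peak with the most tags on the scaffold, 260697 to 270134 with 1071 tags, was of rank 34 among 5684 and overlapped no gamma-H2Av peak either. The IgG peak of highest fold on 2LHet, 232843 to 234430 with 82 tags and a fold of 9.29, was also free of gamma-H2Av. In the third of the 4 parts, from 184416 to 276623, IgG covered 34.4%, against 5.46% for OrR gamma-H2Av and 6.99% for SuUR.

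**Figure D4:**
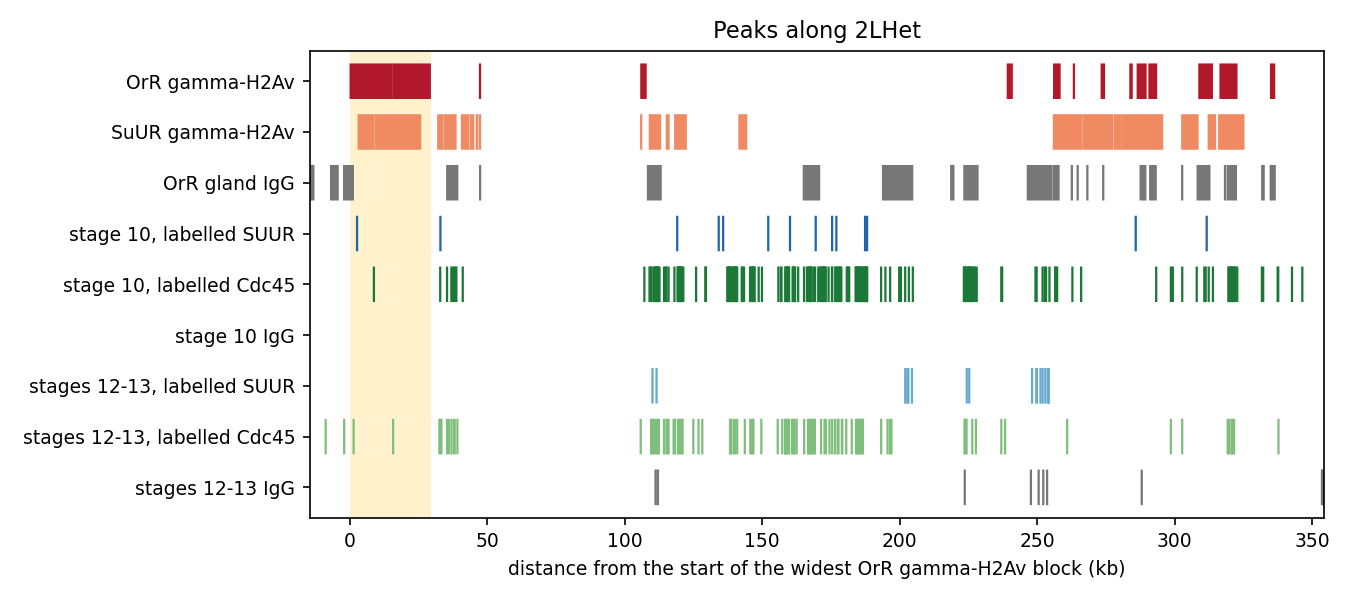
Peaks along 2LHet in the 9 lists, 1 line per library, against the distance in kb from the start of the widest OrR gamma-H2Av block (shaded, 29.6 kb); peaks too narrow to see are drawn at a fixed least width. OrR gamma-H2Av fills the shaded block and SuUR covers 78.2% of it, SuUR fills 40.0 kb near the right end where OrR has 13.2 kb, and the peaks labelled Cdc45 gather in the middle.

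Peaks labelled Cdc45 on 2LHet gathered in the middle of the scaffold. Over the 4 equal parts of the span they numbered 9, 86, 76 and 28 at stage 10 and 13, 57, 34 and 9 at stages 12-13. OrR gamma-H2Av covered 32.9, 2.56, 5.46 and 26.3% of the same parts, and SuUR 39.6, 15.8, 6.99 and 57.1%. In the bin of 10 kb where they exceeded IgG most, 120001 to 130000, the lists labelled Cdc45 covered 30.7% at stage 10 and 20.8% at stages 12-13, with 0 and 1.56% for IgG of the same stage. Gland IgG covered 54.3% of that bin, SuUR gamma-H2Av 57.5% and OrR 23.6%. The largest cluster at stages 12-13, from 171763 to 177142, held 12 peaks over 1.59 kb, with 13 peaks over 1.46 kb at stage 10 and no IgG peak of either tissue and no gamma-H2Av peak. The widest at stage 10, from 237831 to 242536, held 15 peaks over 1.52 kb, and a gland IgG peak covered all of it. The peaks of highest fold labelled Cdc45 were 124689 to 125299 at stage 10, with a pileup of 18 and a fold of 5.40, and 160609 to 160986 at stages 12-13, with a pileup of 21 and a fold of 5.02. Of the 17 peaks labelled SUUR at stages 12-13, 15 lay in the third part, where gland IgG coverage was highest, and the pair that tied for the highest fold, 265676 to 265759 and 266469 to 266522, each had a pileup of 11 and a fold of 4.18 and lay within the gland IgG peak of 1071 tags.

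On YHet, gland gamma-H2Av peaks were spread thinly and denser toward the last base. In the last of 4 equal parts of the span, from 255919, SuUR had 15 of its 26 peaks and covered 21.2%, OrR had 7 of 14 and covered 9.22%, and IgG had 2 of 10 and covered 2.33%. The SuUR peak with the most tags, 321393 to 324484 with 184 tags, lay there and overlapped neither OrR gamma-H2Av nor IgG. From 320001 to 330000 SuUR covered 54.9% and IgG none. From 313193 to 319954 SuUR covered 5.55 kb with 4 peaks, OrR 2.29 kb and IgG 1.33 kb. Another pair of SuUR peaks, 71680 to 73748 with 97 tags and 73805 to 76471 with 154 tags, had no counterpart in the other 8 lists.

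Single YHet peaks had high folds on few tags. The OrR gamma-H2Av peak 4458 to 4836 had 39 tags and a fold of 30.56, and the OrR IgG peak 4385 to 4822 had 33 tags and a fold of 31.89, so that both held about the same level, 2.03 and 2.02 on the per-million scale. No SuUR gamma-H2Av peak lay there, and at stages 12-13 the list labelled SUUR and IgG had a peak at this place with folds of 5.57 and 6.33. Of the OrR gamma-H2Av peaks on YHet without IgG, the highest fold was 9.26, at 55947 to 56475 with 17 tags. In SuUR it was 18.79, at 41015 to 41641 with 27 tags, rank 44 by fold among 6712 peaks.

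In egg chambers YHet held 13 peaks labelled Cdc45, 1 labelled SUUR and 1 of IgG at stage 10, and 6, 4 and 2 at stages 12-13, and most of them lay at 2 places. Around 137155 to 137452 every egg chamber list except the stage 10 one labelled SUUR had a peak, and so did gland IgG, and 83 bases from 137259 to 137341 were common to these 6 lists. Pileups there were 13 in both stage 10 lists, labelled Cdc45 and IgG, and 14, 14 and 18 labelled SUUR, labelled Cdc45 and IgG at stages 12-13. Folds were 3.98 and 5.51 at stage 10, and 5.22, 3.42 and 10.01 at stages 12-13, each over its own background and not ranked between lists. No gamma-H2Av peak lay at this place, and no other place on the 3 scaffolds was covered in 6 lists.

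The other place, 154769 to 155839, held 5 stage 10 peaks labelled Cdc45 over 0.819 kb, and at stages 12-13 4 peaks labelled Cdc45 over 0.551 kb and 1 labelled SUUR over 0.188 kb. Egg chamber IgG had no peak there, but a gland IgG peak, 154301 to 155982 with 216 tags, covered all of it, and gamma-H2Av had none in either strain. It held the peak of highest fold on YHet for both lists labelled Cdc45, 154873 to 155153 with 5.69 and 155129 to 155427 with 4.10. Together with 137155 to 137452 it accounted for 6 of the 13 YHet peaks labelled Cdc45 at stage 10 and for 5 of 6 at stages 12-13. Which other copies of these sequences could have given the tags in female tissue was not tested, and how reads with several matches were placed is not given in the sources used here.

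**Figure D5:**
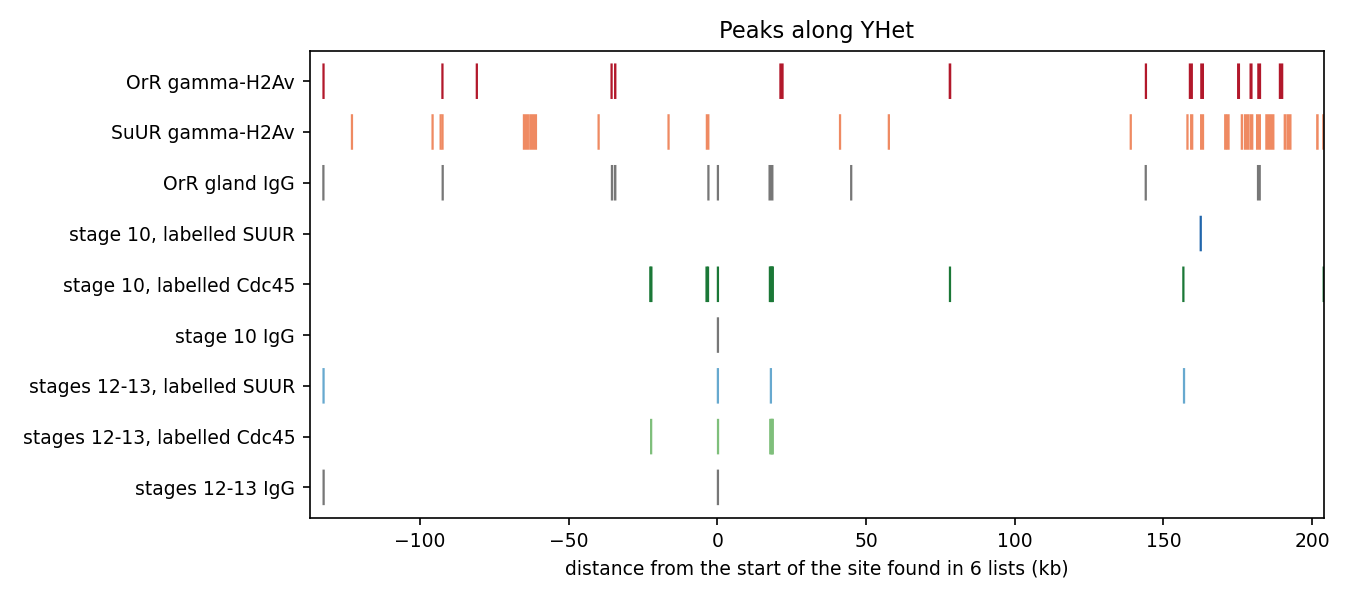
Peaks along YHet in the 9 lists, 1 line per library, against the distance in kb from the start of the site covered in 6 lists; peaks too narrow to see are drawn at a fixed least width. Egg chamber and gland IgG peaks coincide at 0 kb, where neither gamma-H2Av line has a peak, and SuUR gamma-H2Av is densest toward the right end.

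Overlap with IgG by at least 1 bp was near or below that of the whole list. For OrR gamma-H2Av, 18 of 37 scaffold peaks overlapped gland IgG, 48.6% (33.5 to 64.1%) against 52.4% of all peaks, with 9 of 14 on 2LHet, 3 of 9 on XHet and 6 of 14 on YHet. For SuUR it was 14 of 54, 25.9% (16.1 to 38.9%) against 35.2%, with 9 of 20, 2 of 8 and 3 of 26. Both intervals include the share of the whole list, and with a p limit of 1e-10 the shares were 30% and 13.33%. For the lists labelled Cdc45 it was 7 of 294 at stage 10, 2.38% (1.16 to 4.83%) against 13.2%, and 4 of 170 at stages 12-13, 2.35% (0.919 to 5.89%) against 16.0%. For those labelled SUUR it was 0 of 25 at stage 10, which allows a share of up to 12.0%, against 9.87%, and 4 of 36 at stages 12-13, 11.1% (4.41 to 25.3%) against 30.3%. The lower shares of 3 egg chamber lists go with few IgG peaks on these scaffolds, 7 at stage 10 and 17 at stages 12-13. On the larger Het scaffolds the shares of the lists labelled Cdc45 were likewise low, 0.946 and 4.2%. That of the list labelled SUUR at stages 12-13 was 25.3% (20.7 to 30.6%) there, an interval that includes the share of the whole list.

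Sharing between the strains was highest in proportion on 2LHet for OrR peaks and on XHet for SuUR peaks. Of the OrR gamma-H2Av peaks, 23 of 37 overlapped a SuUR peak, 62.2% (46.1 to 75.9%) against 54.7% of all peaks, with 12 of 14 on 2LHet, 6 of 9 on XHet and 5 of 14 on YHet. Of the SuUR peaks 21 of 54 overlapped an OrR peak, 38.9% (27.0 to 52.2%) against 42.6%, with 10 of 20, 6 of 8 and 5 of 26. Both shares are near their background, and without the peaks that overlap IgG the share of SuUR peaks was 22.5%. By length, the strains shared 46.2 kb on 2LHet, which is 74.5% of the OrR and 41.9% of the SuUR coverage. On XHet they shared 31.8 kb, 73.4 and 89.95%, and on YHet 4.999 kb, 38.5 and 18.0%.

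The lists labelled SUUR and Cdc45 met mostly on XHet at stages 12-13 and on 2LHet at stage 10. At stages 12-13, 15 of 36 peaks labelled SUUR overlapped one labelled Cdc45, 41.7% (27.1 to 57.8%) against 38.7% of all peaks, with 11 of 15 on XHet, 2 of 17 on 2LHet and 2 of 4 on YHet. Conversely 13 of 170 peaks labelled Cdc45 overlapped one labelled SUUR, 7.65% (4.52 to 12.6%) against 27.1%. On the larger Het scaffolds these shares were 57.2% of the peaks labelled SUUR and, similarly low, 6.67% of those labelled Cdc45. At stage 10 it was 8 of 25 peaks labelled SUUR, 32.0% (17.2 to 51.6%) against 17.6%, with 5 of 14 on 2LHet, 3 of 10 on XHet and 0 of 1 on YHet, and 8 of 294 labelled Cdc45, 2.72% (1.38 to 5.28%) against 3.58%. The larger Het scaffolds had 25.2 and 2.28% at stage 10.

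Between the stages, peaks labelled Cdc45 recurred at a rate near that of the whole list. Of the stage 10 peaks 113 of 294 overlapped one of stages 12-13, 38.4% (33.1 to 44.1%) against 36.3%, and 107 of 170 did so in the other direction, 62.9% (55.5 to 69.8%) against 67.4%. Of the 25 stage 10 peaks labelled SUUR none overlapped one of the 36 of stages 12-13, which allows a share of up to 12.0%, against 16.2% over the list. In the other direction 0 of 36 allow up to 8.33%, against 6.94%. For IgG 1 of 7 stage 10 peaks recurred, against 39.7%, and 1 of 17 peaks of stages 12-13, against 31.3%, both at the YHet site 137155 to 137452.

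Across tissues, stage 10 peaks labelled Cdc45 lay under gland IgG and SuUR gamma-H2Av peaks at similar shares, and under OrR gamma-H2Av peaks at a lower one. Of the 294 peaks, 98 overlapped gland IgG, 33.3% (28.2 to 38.9%) against 18.7% of the whole list, and 80 of these were on 2LHet. With SuUR gamma-H2Av it was 100, 34.0% (28.8 to 39.6%) against 19.6%. With OrR gamma-H2Av it was 58, 19.7% (15.6 to 24.7%) against 18.7%, of which 36 were on XHet. On the larger Het scaffolds the shares were 25.9% for gland IgG, 21.6% for SuUR and 22.7% for OrR gamma-H2Av, so OrR was not the lowest there. The same lists covered unlike parts of the 3 small spans, 10.9, 19.0 and 12.9%. Seen from the glands, 13 of 37 OrR gamma-H2Av peaks held a stage 10 peak labelled Cdc45 (37.1% over the whole list), as did 22 of 54 SuUR peaks (32.0%) and 20 of 40 IgG peaks (35.2%). For stages 12-13 it was 10 of 37 OrR peaks (26.5%) and 18 of 54 SuUR peaks (18.8%). Of the 40 IgG peaks 19 overlapped OrR gamma-H2Av and 19 SuUR gamma-H2Av, where the whole IgG list gave 51.9 and 44.4%. Gland peaks are wide, so a narrow peak below one shows only a shared place.

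Most of the sequence lay outside every list. No list covered 50.1% of the 2LHet span, 70.3% of XHet and 88.6% of YHet. The most lists over any base was 5 on 2LHet and XHet. On 2LHet such stretches included 335466 to 335620, and on XHet 113988 to 114066, inside the fourth unit of the array. Both were covered by all 3 gland lists and by both lists labelled Cdc45.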

How the data were processed

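Reads were mapped with BWA to dm3, per the submitters' processing notes; how reads with several matches were placed is not given in the sources used here. Peaks were called per library. Per the file headers, MACS 1.4.2 called the gland lists (p limit 1e-05, genome size set to 2700000000) and MACS 2.0.10.20130419 the egg chamber lists (p limit 1e-03, genome size set to 120000000). Each gland peak carries a count of tags, as deposited by the authors. Its deposited score is a scaled −log10 of the p-value and was used only for the stricter limit. Egg chamber peaks carry a pileup signal at the summit and a −log10 p-value, as deposited by the authors. In both callers the fold enrichment is over the input, per the file headers. For most egg chamber peaks, however, the fold went with the pileup alone. Stage 10 peaks labelled Cdc45 mostly had a fold of 3.697 at a pileup of 12 and 3.982 at 13. A rank by fold is thus largely a rank by pileup in these lists. The FDR and q-value columns were not used.

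Peaks were selected by scaffold name. Width, covered length, density over the span up to the last peak end, tags scaled to the library, and overlaps of at least 1 bp were computed with Python 3.11.15, pandas 2.3.3 and scipy 1.17.1. The interval code was tested on simulated intervals. Peaks and bins were named by rule: on each scaffold and in each ChIP list the peak of highest fold without IgG of its tissue or stage, in each IgG list the peak of highest fold, the 2 bins of 10 kb whose coverage exceeded IgG most, and the widest stretches covered in the most lists. Other blocks and the XHet run were picked after their values were seen, and the scaffolds and rules were chosen with earlier results of these data known. Alternatives were a stricter limit (p of 1e-10 in glands and 1e-05 in egg chambers), equal list lengths, an overlap of 50% of the shorter peak, and peaks that overlap IgG left out. The 4 inputs entered only through the peak calls. No gene was placed and no sequence is shown, since no genome of this build was used.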

Additional observations from a re-analysis of the deposited data

Results flagged for a closer look

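On 2LHet the 2 strains lay on opposite sides of the gland IgG background. OrR gamma-H2Av covered 62.0 kb, a difference of -15.29 kb to the 77.3 kb of IgG, and SuUR covered 110.2 kb, which is 32.9 kb above it. The gap between the strains was 48.19 kb. It was not tested, since each strain has 1 library, and the SuUR peaks were called against another input. Covered length was not recomputed with the stricter p limit of 1e-10, under which 2LHet kept 10 SuUR, 7 OrR and 14 IgG peaks. The widest SuUR peak that fails it, 295029 to 310331, spans 15.3 kb and has a caller's −log10 p of 5.249. For OrR it is 14478 to 29962, of 15.5 kb with 6.06, and for IgG 270219 to 272682, of 2.46 kb with 8.287. The excess of SuUR over IgG thus rests in part on peaks that fail this limit.

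By covered length, the lists labelled SUUR also changed sides of IgG between the egg chamber stages. On XHet the stage 10 list differed from its IgG by -0.436 kb and the list of stages 12-13 by 1.133 kb, a gap of 1.569 kb. On YHet the differences were -0.191 and 0.175 kb, a gap of 0.366 kb. By number the lists labelled SUUR were never below IgG: stage 10 had 10 peaks labelled SUUR and 6 of IgG on XHet and 1 of each on YHet, and stages 12-13 had 15 and 2 on XHet and 4 and 2 on YHet. These gaps were not tested either. The stage 10 library labelled SUUR held 353742 tags and that of stages 12-13 4824942, and stage and depth cannot be told apart.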

How the results depend on the processing

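With the stricter p limits the numbers of peaks on the 3 scaffolds were 20 for OrR gamma-H2Av, 30 for SuUR, 19 for gland IgG, 1 and 195 labelled SUUR and Cdc45 at stage 10, and 19, 91 and 10 labelled SUUR, labelled Cdc45 and IgG at stages 12-13. Under these limits the share of the list on the scaffolds moved to 0.1167% for stage 10 labelled SUUR, and with equal numbers of peaks to 0.7577% and 0.9714% for the lists labelled Cdc45 at stage 10 and at stages 12-13, and the stage 10 interval labelled Cdc45 then overlapped the one labelled SUUR. The other 15 shares stayed within their intervals. The share overlapping IgG was 30% for OrR and 13.33% for SuUR gamma-H2Av under the stricter limits, and kept within its interval in the other 10 cases. Of shares between lists, the stricter limits gave 0% in both directions between the stage 10 lists, where 1 peak labelled SUUR was left, 57.89% of the peaks labelled SUUR over those labelled Cdc45 at stages 12-13, and 31.79% of the stage 10 peaks labelled Cdc45 found again at stages 12-13. An overlap of 50% of the shorter peak gave 32.31% for that last share and 54.71% in the other direction. Leaving out peaks that overlap IgG gave 22.5% of SuUR peaks shared with OrR. The other 27 shares between lists moved by less than their intervals. The cause of these moves was not tested. The stricter limits, equal numbers and left-out peaks leave fewer peaks, while the 50% overlap keeps all of them. The 6 XHet peaks of equal extent in both strains were 6 at a reciprocal overlap of 80%, of 95% and under the stricter limit, settings added after the data were seen. No paired analysis was possible because each group has 1 library and no result comes from a test, and no replicate could be left out for the same reason. With 1 library per group and peak lists from callers with different limits, no density can be carried to other flies. The SUUR-labelled stage 10 list also rested on 2 to 4 tags a peak on these scaffolds.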
